A study of Mus musculus with 12 samples.

Results

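The S100 proteins and annexins described here are 10 genes, S100a1, S100a4, S100a6, S100a10, S100a11, S100a13, Anxa1, Anxa2, Anxa3 and Anxa5, taken as every array probe whose gene name is one of these symbols. They are 10 of 36406 gene names and 13 of 55681 probes on the array. All 13 probes were well above background on all 12 arrays, so every member passed the filter on dim probes, and 22590 genes passed it in all. The 10 were chosen by name, in a list drawn up with the measured differences between these groups known, and which of those differences selected them is not stated. All values of the members are therefore given as a description, with no p-value.

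The RNA came from mouse embryonic stem cells and was read on 1-colour Agilent arrays. Each of the 3 groups has 4 arrays, which the study describes as separate biological samples. WT cells are wild type, Id1KO cells lack the gene Id1, and Id1KO_Zrf1KD cells are Id1KO cells that also carry lentiviral short hairpin RNAs (pLKO) against Zrf1 and were selected with puromycin as a stable population. All 3 groups were grown in GMEM medium with fetal bovine serum and LIF, the cytokine that holds embryonic stem cells undifferentiated. The WT and Id1KO cells were gifts to the study, the labels name no separate clones or passages, and an Id1KO group with a control hairpin was not analysed here, so the hairpin and the infection with its selection cannot be told apart. Id1 encodes an inhibitor of basic helix-loop-helix transcription factors. Zrf1, named Dnajc2 on the array, encodes a chaperone of the ribosome that also binds ubiquitinated histone H2A.

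S100 proteins are small calcium sensors with a pair of EF-hand loops. They mostly work as dimers that bind a target protein once calcium is bound, and several are also secreted. Annexins are a separate family that binds acidic phospholipids of membranes when calcium rises, and they take part in membrane repair, endocytosis and exocytosis. The families meet in fixed pairs: an S100A10 dimer holds a pair of annexin A2 molecules, and S100A11 binds annexin A1. In tissues, S100A4, S100A6, annexin A1 and annexin A2 are known as abundant proteins of mesenchymal and epithelial cells.

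Many S100 genes lie side by side on mouse chromosome 3 and resemble each other, so the probe letters show what each measurement rests on. The probes of S100a1, S100a4 and S100a6 that cover the stretch coding for the end of the second EF-hand loop are given 5′ to 3′, with the 11 letters TTCNAGGAGTA that all of them hold in capitals.
S100a1 probe, chr3:90315191-90315250 (mm9, minus strand): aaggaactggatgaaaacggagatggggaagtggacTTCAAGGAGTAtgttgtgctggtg
S100a4 probe, chr3:90409734-90409793 (mm9, plus strand): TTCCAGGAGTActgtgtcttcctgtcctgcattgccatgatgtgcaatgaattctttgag
S100a6 probe, chr3:90418160-90418219 (mm9, plus strand): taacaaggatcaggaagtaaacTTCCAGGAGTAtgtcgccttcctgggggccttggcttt
Read on the probe strand, the shared letters are in 6 of the array's 55681 probes (0.0108%). The letters were taken from the printed probes themselves, so their presence there was fixed in advance and the percentage is no test. In the best ungapped alignment, 18 of 60 bases are identical between the S100a1 and S100a4 probes, 31 between S100a1 and S100a6, and 24 between S100a4 and S100a6. Bases outside the aligned stretch count here as not identical, so these numbers depend on where each probe sits in its gene. They do not measure how alike the genes are. The 3 genes were read by separate probes, and whether a probe also reads another S100 transcript was not tested.

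The knockdown of Zrf1 was seen on the arrays. Dnajc2 was 4.47-fold lower in Id1KO_Zrf1KD than in Id1KO cells. The Id1 probe gave 0.37 ± 0.15 (log2 difference ± SE) in Id1KO against WT cells, and since the sources used here do not say whether it lies in the deleted part, it checks nothing. Between 54.8% and 59.3% of spots were well above background per array, and no spot was saturated. The 12 embryonic stem cell markers, Pou5f1, Sox2 and Nanog among them, were above background on every array.

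A level below is a probe's log2 signal minus the 75th percentile of its own array, so 0 is a signal equal to that percentile. Levels of different genes come from different probes and are not compared. Differences between groups are in log2 units ± SE from limma fitted on all 12 arrays, and a gene counts as called at a Benjamini-Hochberg adjusted p under 0.05 over 22590 genes.

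The 10 genes fell into 3 shapes over the groups. S100a4, S100a6, Anxa1 and Anxa3 were higher in Id1KO than in WT cells and higher again in Id1KO_Zrf1KD cells. S100a11, S100a13, Anxa2, Anxa5 and S100a1 were lower in Id1KO than in WT cells, and the first 4 of these were higher in Id1KO_Zrf1KD than in Id1KO cells. S100a10 alone among the 10 was highest in Id1KO cells. The largest differences were those of S100a4, which was 6.33-fold higher in Id1KO and 8.25-fold higher in Id1KO_Zrf1KD than in WT cells.

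**Figure D1:**
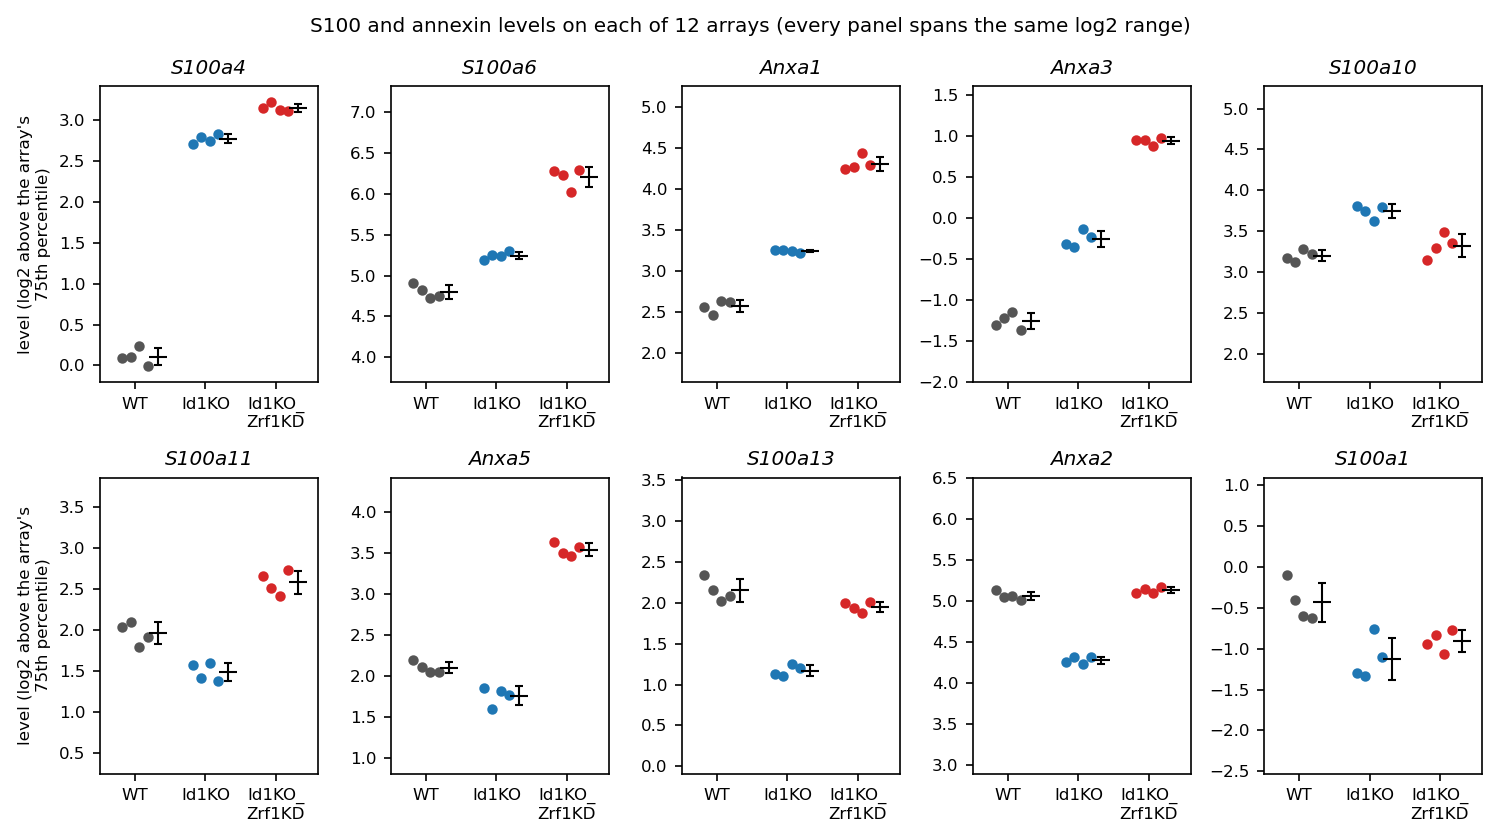
Level (log2 signal relative to the 75th percentile of the array) of the brightest probe of each of the 10 genes on the 12 arrays, with 4 arrays per group as points and the mean ± SD as bars. Every panel spans the same range on its own axis. The top row shows the 4 genes that step up over the groups, with S100a10, highest in Id1KO cells, at its right, and the bottom row the 5 genes that were lower in Id1KO than in WT cells.

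In Id1KO_Zrf1KD against Id1KO cells, 8 of the 10 genes were called higher and 1, S100a10, lower, where 72.1% of all genes were called, 32.3% higher and 39.8% lower. The values of 9 of the 10 did not overlap between these groups, as for 66.5% of all genes. In Id1KO against WT cells, 5 were called higher and 5 lower, where 72.0% of all genes were called, 42.5% higher and 29.6% lower, and none of the 10 overlapped, as for 65.3% of all genes. In Id1KO_Zrf1KD against WT cells, 6 were called higher and 2 lower, where 64.6% of all genes were called, 32.4% higher and 32.2% lower, and 8 did not overlap, as for 60.7% of all genes. The members' median log2 differences were 0.91, 0.05 and 1.01 in these 3 comparisons, and the medians of all genes were -0.09, 0.15 and -0.02. These counts and medians are read no further, because the list was made with such results known, and the 3 comparisons share groups.

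**Figure D2:**
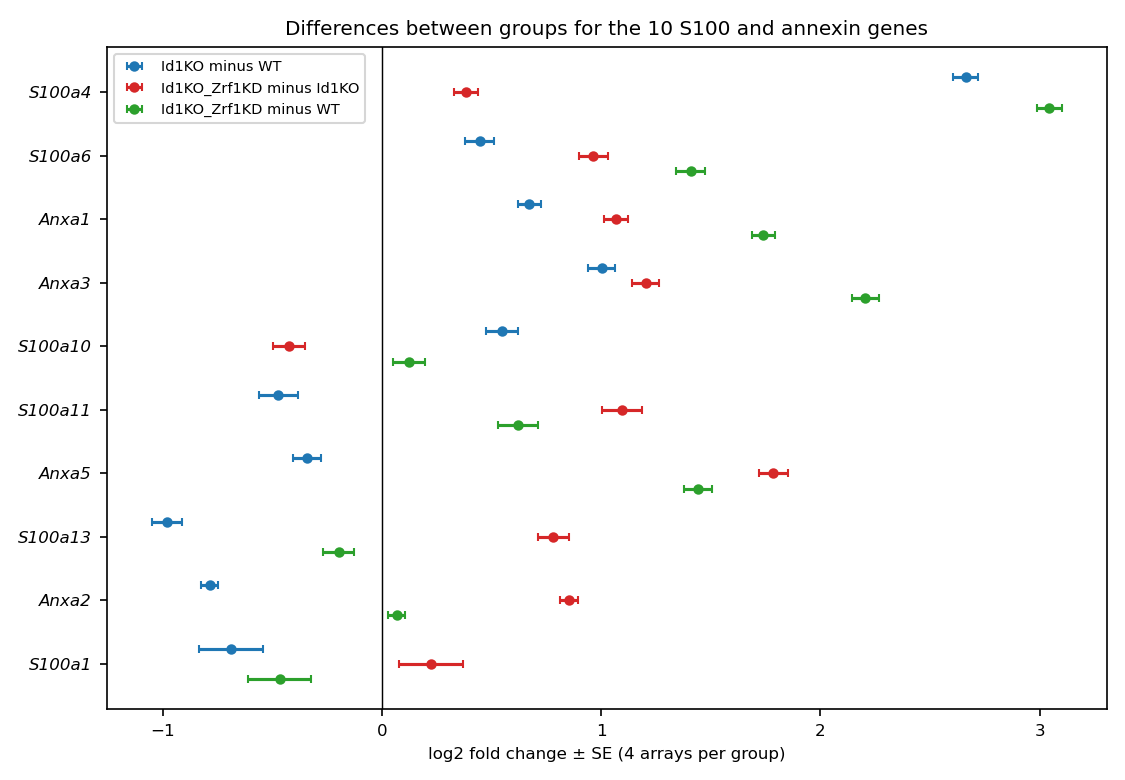
Log2 fold changes ± SE of the 10 genes for the 3 comparisons, from limma on 12 arrays. S100a4 has the largest difference between Id1KO and WT cells (2.66), Anxa5 the largest between Id1KO_Zrf1KD and Id1KO cells (1.79), and S100a10 lies on the opposite side of 0 from the other 9 genes in that last comparison.

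S100a4 encodes a calcium sensor that binds the heavy chain of non-muscle myosin and is a common marker of fibroblasts. Its brighter probe (chr3:90409908-90409967, mm9) read 0.10, 0.10, 0.24 and -0.01 in WT cells. On the Id1KO arrays it read 2.71, 2.79, 2.75 and 2.83, and on the Id1KO_Zrf1KD arrays 3.15, 3.22, 3.13 and 3.11. The groups stood apart in 3 steps with no overlap, and the step from WT to Id1KO cells (2.66 ± 0.06) was far larger than the step from Id1KO to Id1KO_Zrf1KD cells (0.38 ± 0.06). The other probe, whose letters are given above, gave 2.58 and 0.38 for the same steps. Both probes thus placed most of the difference between WT and Id1KO cells. Myh9, the myosin heavy chain that S100A4 binds, followed another course: it was 2.14-fold higher in Id1KO_Zrf1KD than in Id1KO cells (limma adjusted p = 1e-08) after a difference of -0.73 between Id1KO and WT cells.

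S100a6 encodes calcyclin, a sensor of proliferating and mesenchymal cells. Its probe read 4.91, 4.82, 4.72 and 4.75 in WT cells and 5.19, 5.25, 5.24 and 5.30 in Id1KO cells. In Id1KO_Zrf1KD cells it read 6.28, 6.23, 6.03 and 6.29. All 4 Id1KO arrays were above all WT arrays and below all Id1KO_Zrf1KD arrays. The steps were 0.44 ± 0.07 and 0.96 ± 0.07, so here the larger step was the one between Id1KO and Id1KO_Zrf1KD cells. Over both, S100a6 was 2.65-fold higher in Id1KO_Zrf1KD than in WT cells. The probes of S100a4 and S100a6 lie close together, 94.7 and 103 kb from that of S100a1, and the larger step was a different one for each gene.

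The promoter of S100a4, the gene with the largest difference, is printed as 250 bases before to 50 after its RefSeq start, with the letters TATAAA in capitals.
S100a4 promoter, chr3:90603520-90603819 (GRCm38.p6, plus strand): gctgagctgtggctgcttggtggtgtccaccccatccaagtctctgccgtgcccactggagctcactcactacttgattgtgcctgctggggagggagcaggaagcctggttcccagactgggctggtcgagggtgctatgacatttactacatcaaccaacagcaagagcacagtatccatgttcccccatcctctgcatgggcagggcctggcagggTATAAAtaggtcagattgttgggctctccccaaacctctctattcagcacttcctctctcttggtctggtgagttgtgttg
TATAAA was searched on both strands and is in 13.6% of the 32851 promoters of this length. Of the 8 members with a promoter in the RefSeq table, 3 hold it, S100a4, Anxa1 and Anxa2. The window of S100a4 holds 2 CpG pairs, against a median of 7 over all promoters and 16 for Anxa5. The members' windows thus included both CpG-poor and CpG-rich ones, and no promoter measurement was made in these cells.

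S100a10 and Anxa2 encode the partners of a heterotetramer on the inner face of the plasma membrane, which also binds plasminogen and its activator at the cell surface. S100a10 (probe chr3:93368437-93368496, mm9) read 3.17, 3.12, 3.28 and 3.23 in WT, 3.81, 3.75, 3.63 and 3.80 in Id1KO, and 3.15, 3.29, 3.49 and 3.36 in Id1KO_Zrf1KD cells. Anxa2 (probe chr9:69339532-69339591, mm9) read 5.13, 5.05, 5.07 and 5.02 in WT, 4.26, 4.32, 4.23 and 4.31 in Id1KO, and 5.10, 5.15, 5.10 and 5.17 in Id1KO_Zrf1KD cells. The partners went opposite ways: in Id1KO cells every S100a10 value was above, and every Anxa2 value below, all values of the other 2 groups.

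S100a10 was 0.55 ± 0.07 higher and Anxa2 1.73-fold lower (-0.79 ± 0.04) in Id1KO than in WT cells. In Id1KO_Zrf1KD against Id1KO cells, S100a10 was 1.34-fold lower (-0.42 ± 0.07) and Anxa2 1.81-fold higher (0.85 ± 0.04). Between Id1KO_Zrf1KD and WT cells, the difference was 0.12 for S100a10 (95% interval -0.04 to 0.29) and 0.07 for Anxa2 (95% interval -0.02 to 0.16). Neither was called, the arrays of these groups overlapped, and both intervals allow only small differences. S100a10 was called higher here with slide as a block (0.16) and without Id1KO_Zrf1KD replicate 1 (0.18), while quantile normalization gave 0.01 and the deposited table gave 0.02. The sign of the Anxa2 difference also depended on the scaling, since quantile normalization gave -0.11 and the authors' deposited table -0.10.

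Within an array, the log2 signal of Anxa2 minus that of S100a10 does not depend on the array's scale. Set to a mean of 0 in WT cells (SD 0.09, n = 4), it was -1.42, -1.31, -1.27 and -1.35 on the Id1KO arrays. On the Id1KO_Zrf1KD arrays it was 0.09, -0.01, -0.26 and -0.06. The balance of the pair's transcripts was thus shifted towards S100a10 in all 4 Id1KO samples by 1.34 log2 units on average (SD 0.07), and the mean in Id1KO_Zrf1KD cells was -0.06 (SD 0.15). This is a ratio of transcript signals, and the amounts of the proteins were not measured.

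S100a11 and Anxa1 form the other known pair, in which the annexin is also released and acts on formyl peptide receptors. S100a11 (probe chr3:93330022-93330081, mm9) read 2.04, 2.10, 1.80 and 1.91 in WT, 1.57, 1.41, 1.60 and 1.37 in Id1KO, and 2.66, 2.52, 2.41 and 2.73 in Id1KO_Zrf1KD cells. Anxa1 (probe chr19:20447938-20447997, mm9) read 2.56, 2.47, 2.64 and 2.62 in WT, 3.25, 3.25, 3.24 and 3.23 in Id1KO, and 4.24, 4.27, 4.44 and 4.30 in Id1KO_Zrf1KD cells. In neither gene did any group overlap another, but Id1KO cells were the lowest group for S100a11 and the middle group for Anxa1.

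In Id1KO against WT cells, S100a11 was 1.39-fold lower (-0.47 ± 0.09) and Anxa1 1.59-fold higher (0.67 ± 0.05). Between Id1KO and Id1KO_Zrf1KD cells the pair had nearly equal differences, 1.09 ± 0.09 for S100a11 and 1.07 ± 0.05 for Anxa1. As a result S100a11 was 1.54-fold and Anxa1 3.34-fold higher in Id1KO_Zrf1KD than in WT cells. A dimmer Anxa1 probe gave 0.43 and 1.20 for the 2 steps, with 1 Id1KO array, at -0.42, below the lowest WT array, at -0.38. For that probe the WT and Id1KO arrays therefore overlapped, while Id1KO_Zrf1KD was again the highest group.

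The promoters of S100a11 and Anxa2 are shown because they alone among the 8 member promoters hold TGANTCA, the letters that AP-1 transcription factors bind. Both genes were lower in Id1KO and higher again in Id1KO_Zrf1KD cells. So were S100a13 and Anxa5, whose promoters do not hold these letters. These letters are in capitals.
S100a11 promoter, chr3:93520246-93520545 (GRCm38.p6, plus strand): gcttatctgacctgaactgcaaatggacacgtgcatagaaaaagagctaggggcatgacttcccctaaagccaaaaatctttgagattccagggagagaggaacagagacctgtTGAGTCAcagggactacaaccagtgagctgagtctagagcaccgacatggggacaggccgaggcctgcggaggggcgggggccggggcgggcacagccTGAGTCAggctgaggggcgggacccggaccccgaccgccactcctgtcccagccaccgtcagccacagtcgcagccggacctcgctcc
Anxa2 promoter, chr9:69453433-69453732 (GRCm38.p6, plus strand): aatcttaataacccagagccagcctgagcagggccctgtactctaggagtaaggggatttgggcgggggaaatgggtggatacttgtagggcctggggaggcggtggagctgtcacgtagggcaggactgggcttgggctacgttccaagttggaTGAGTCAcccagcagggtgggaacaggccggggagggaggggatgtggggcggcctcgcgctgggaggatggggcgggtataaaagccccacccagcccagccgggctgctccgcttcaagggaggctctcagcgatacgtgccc
S100a11 holds them 136 and 38 bases before its start, and Anxa2 95 bases before. TGANTCA, searched on both strands, is in 7.81% of the 32851 promoters. The GC box letters GGGCGG are in the same 2 of 8 member promoters and in 35.7% of all promoters. The E-box letters CANNTG, which basic helix-loop-helix factors bind, are in 5 of 8 member promoters and in 72.3% of all promoters. A match is a description of the letters, and binding was not measured here.

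S100a13 and S100a1 are neighbours that are read in opposite directions. RefSeq's promoter windows place their starts 105 bases apart, S100a1 at 90514330 and S100a13 at 90514435 of chromosome 3, while the RefSeq span of S100a13 begins earlier, at 90514233. S100A13 takes part in the release of fibroblast growth factor 1 from cells, and S100A1 is best known as a regulator of calcium release channels and pumps in muscle. The S100a13 promoter window is printed with the 104 bases between those window starts in capitals, to show how close the neighbours lie.
S100a13 promoter, chr3:90514185-90514484 (GRCm38.p6, plus strand): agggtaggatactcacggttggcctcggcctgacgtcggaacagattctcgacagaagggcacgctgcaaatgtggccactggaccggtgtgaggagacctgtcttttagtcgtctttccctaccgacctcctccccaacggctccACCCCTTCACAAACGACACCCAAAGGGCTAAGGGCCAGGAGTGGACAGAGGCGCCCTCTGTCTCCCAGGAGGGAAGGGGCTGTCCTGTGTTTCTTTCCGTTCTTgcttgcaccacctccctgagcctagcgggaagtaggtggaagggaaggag
With the earlier S100a13 start, the RefSeq spans of the 2 genes overlap by 98 bases, and their promoter windows overlap by 204 bases. Array probes of this kind read 1 strand, and no use of either start was measured.

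S100a13 (probe chr3:90328442-90328501, mm9) read 2.34, 2.16, 2.02 and 2.08 in WT cells. It read 1.12, 1.10, 1.25 and 1.20 in Id1KO and 1.99, 1.94, 1.87 and 2.01 in Id1KO_Zrf1KD cells. The Id1KO arrays were thus well below both other groups, which lay close together. S100a13 was 1.97-fold lower in Id1KO than in WT cells (-0.98 ± 0.07) and 1.72-fold higher in Id1KO_Zrf1KD than in Id1KO cells (0.78 ± 0.07). The difference left between Id1KO_Zrf1KD and WT cells was -0.20 ± 0.07. It was called in the fit, but the call was lost without WT replicate 1 (-0.14), WT replicate 2 (-0.20), Id1KO_Zrf1KD replicate 2 (-0.19) or replicate 3 (-0.17). It was larger, and called, with quantile normalization (-0.30) and in the deposited table (-0.31).

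S100a1 (the probe printed above) read -0.10, -0.41, -0.61 and -0.62 in WT cells. It read -1.30, -1.33, -0.77 and -1.10 in Id1KO and -0.94, -0.83, -1.07 and -0.77 in Id1KO_Zrf1KD cells. The WT arrays were above all others, and the other 2 groups overlapped. S100a1 was 1.61-fold lower in Id1KO (-0.69 ± 0.15) and 1.38-fold lower in Id1KO_Zrf1KD cells (-0.47 ± 0.15) than in WT cells. The difference between Id1KO_Zrf1KD and Id1KO cells was 0.22 ± 0.15 (95% interval -0.10 to 0.54) and was not called. It was called without Id1KO replicate 3 (0.34) and in the authors' deposited table (0.29). A dimmer S100a1 probe gave -0.55 and 0.02 for the steps from WT to Id1KO and from Id1KO to Id1KO_Zrf1KD cells. Both neighbours were thus lower in Id1KO cells, while a higher level in Id1KO_Zrf1KD than in Id1KO cells was called for S100a13 and, with the settings used here, not for S100a1. The difference between the 2 genes was not tested.

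Anxa3 and Anxa5 encode annexins without a fixed S100 partner named here. Annexin A5 binds phosphatidylserine and is the usual stain for dying cells, and annexin A3 is abundant in neutrophils. Anxa3 (probe chr5:97253925-97253984, mm9) read -1.31, -1.22, -1.14 and -1.37 in WT, -0.32, -0.35, -0.13 and -0.24 in Id1KO, and 0.95, 0.96, 0.88 and 0.98 in Id1KO_Zrf1KD cells. Its groups formed 3 separate steps of similar size, 1.002 ± 0.06 and 1.20 ± 0.06, which made Anxa3 4.61-fold higher in Id1KO_Zrf1KD than in WT cells.

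Anxa5 (probe chr3:36348065-36348124, mm9) read 2.19, 2.11, 2.05 and 2.05 in WT cells. It read 1.86, 1.59, 1.81 and 1.76 in Id1KO and 3.63, 3.50, 3.46 and 3.57 in Id1KO_Zrf1KD cells. Id1KO cells were slightly but without overlap below WT cells, and Id1KO_Zrf1KD cells far above both. The differences were -0.34 ± 0.07 and 1.79 ± 0.07, so that Anxa5 was 3.45-fold higher in Id1KO_Zrf1KD than in Id1KO cells and 2.72-fold higher than in WT cells.

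The direction of the members' differences was also read within the 3 array slides, each of which held all 3 groups. In 29 of the 30 differences between groups, the sign was the same within every slide. The exception was S100a1 in Id1KO_Zrf1KD against Id1KO cells, with -0.09, 0.28 and 0.25 on slides 1, 2 and 3. With slide as a block, no member's call changed other than that of S100a10 named above. The 4 ways of making the values gave like sizes for most members.

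**Figure D3:**
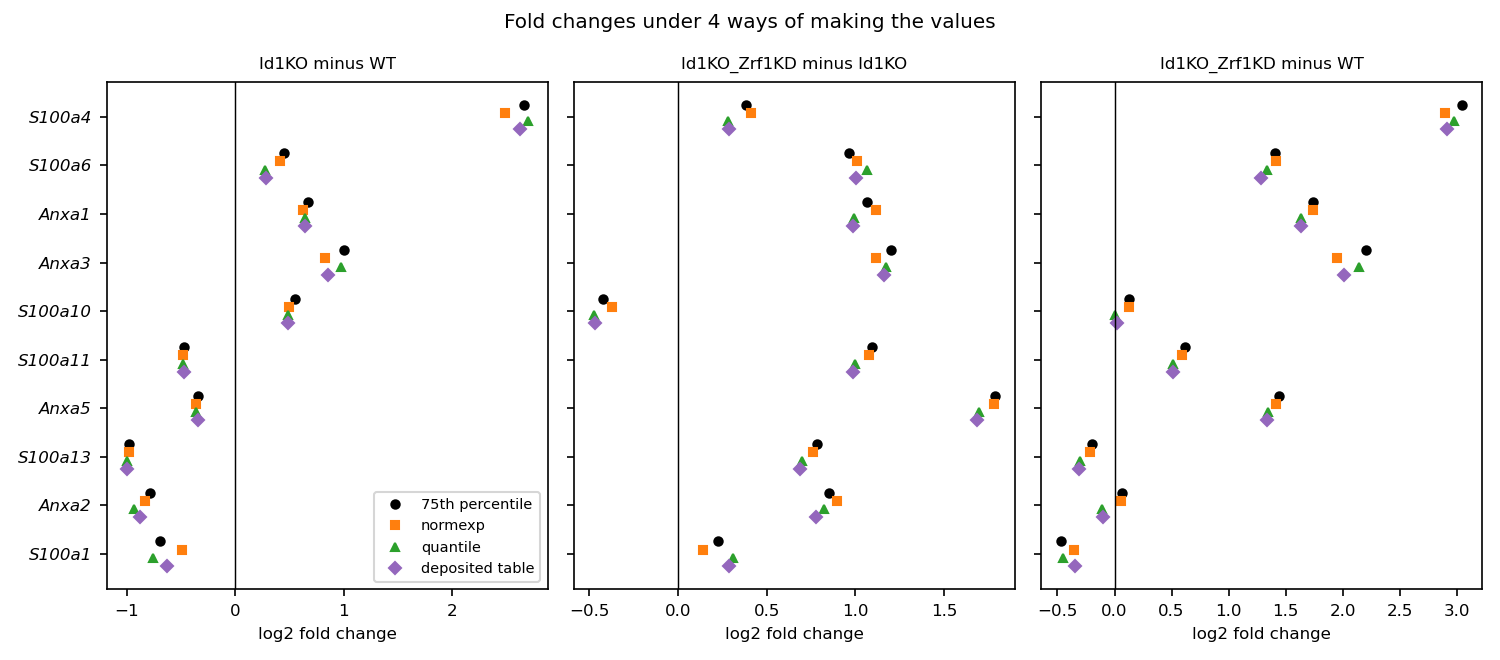
Log2 fold changes of the 10 genes for the 3 comparisons when values were scaled to the 75th percentile, corrected with normexp, quantile normalized, or taken from the authors' deposited table. The points of a gene lie close together, and only Anxa2 in Id1KO_Zrf1KD against WT cells has points on both sides of 0 (0.07, 0.06, -0.11 and -0.10).

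Quantile normalization moved the median of all genes from 0.15 to 0.02 in Id1KO against WT cells. Under it S100a6 was 0.28 and S100a4 2.69 above WT cells, while the difference of Anxa2 was -0.93. The 5 genes higher and the 5 genes lower in Id1KO cells thus kept their side of 0 under this scaling as well.

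The S100a1 to S100a6 stretch of chromosome 3 did not move as a block. Its lower end, S100a1, S100a13 and the next gene S100a14, was lower in Id1KO than in WT cells, and S100a14, an S100 gene of epithelia, had the largest drop of the 3 (-2.32 ± 0.12, limma adjusted p = 1.48e-08, and -1.44 with normexp values). S100a16, 31.7 kb from S100a1, was not called (0.19 ± 0.08, limma adjusted p = 0.0566), but was with slide as a block (limma adjusted p = 0.0198). S100a4, 94.7 kb from S100a1, was 6.33-fold higher, while S100a3 and S100a5, on its left and right, differed by -0.13 ± 0.20 and 0.03 ± 0.20 and were not called. S100a3 and S100a5 were dim, with 3 and 2 of 4 Id1KO arrays above background. Their wide intervals (-0.59 to 0.32 and -0.42 to 0.47) did not reach the 2.66 of S100a4 with this scaling. Signals so near background cannot exclude a difference between the transcripts.

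In Id1KO_Zrf1KD against Id1KO cells, S100a14 was 4.97-fold higher (2.31 log2, limma adjusted p = 1.83e-08, and 1.43 log2 with normexp values), which left it at -0.01 ± 0.12 from WT cells. S100a16 was lower in the same comparison (-0.42 ± 0.08, limma adjusted p = 0.000832). Among the 25 tested genes within 500000 bases of these members, 9 were called higher and 11 lower in Id1KO_Zrf1KD against Id1KO cells, and 11 higher and 6 lower in Id1KO against WT cells. The 11 called higher include S100a8, which was not well above background in WT or Id1KO cells. Around S100a10 and S100a11, which lie further along the chromosome, 3 of 17 neighbours were called higher and 2 lower, and then 7 higher and 2 lower, in the same comparisons. Of all genes, 32.3% were called higher and 39.8% lower in the first of these comparisons, and 42.5% and 29.6% in the second. The neighbours took both directions around both sets of members. The 7 called higher around S100a10 and S100a11 included Tdpoz2, Tdpoz4, Tdpoz3 and Gm10697 (2.86, 3.42, 2.99 and 1.80 in Id1KO against WT cells).

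**Figure D4:**
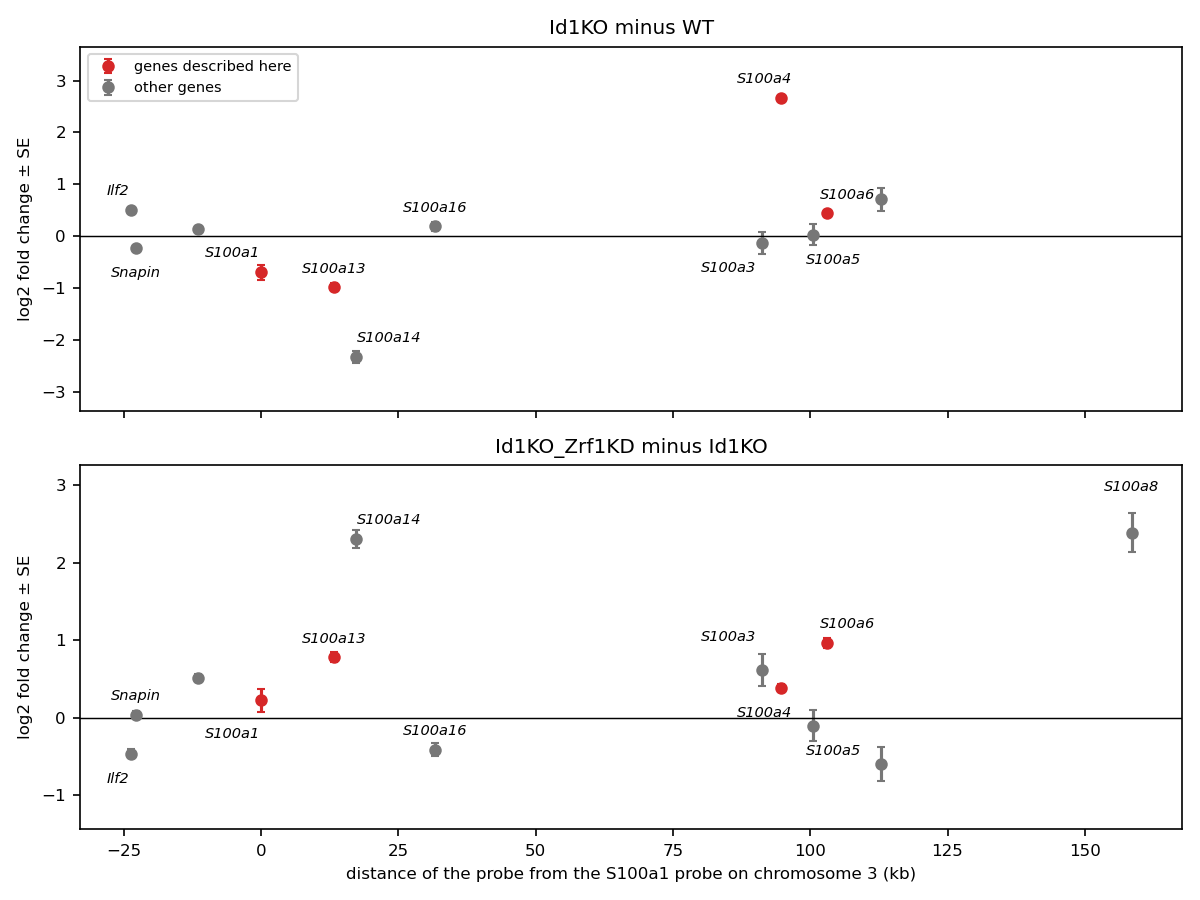
Log2 fold change ± SE of genes along the S100 cluster of chromosome 3 against the distance of their brightest probe from that of S100a1 (kb), for Id1KO against WT cells (top) and Id1KO_Zrf1KD against Id1KO cells (bottom). The members are red and 2 grey points without a name are a clone and an unnamed locus. S100a14 lies at -2.32 in the top panel and 2.31 in the bottom panel, and S100a4 at 2.66 between neighbours near 0 in the top panel. S100a8 has no point in the top panel because it was not well above background in either group.

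The relatives outside the 10 genes were described by the same fit. Of 10 other S100 genes and 8 other annexins on the array, 8 and 7 were tested. S100a7a, S100a9 and Anxa13 were not well above background in any group. In Id1KO_Zrf1KD against Id1KO cells, 5 S100 genes were called higher and 1 lower, and 3 annexins higher and 3 lower. In Id1KO against WT cells, 2 S100 genes were called higher and 1 lower, and 2 annexins higher and 3 lower. One of those 2 S100 genes was S100a8, which was not well above background in WT or Id1KO cells and so has no fold there. In Id1KO_Zrf1KD against WT cells, 3 S100 genes were called higher and 1 lower, and 5 annexins were called lower, with Anxa10 and Anxa11 not called.

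Anxa4, Anxa6 and Anxa8, annexins of epithelia and of endosomal membranes, had the shape of Anxa2. They were 2.02-fold, 2.26-fold and 2.80-fold lower in Id1KO than in WT cells (limma adjusted p = 2.38e-08, 3.68e-08 and 8.27e-10). Against Id1KO cells, Id1KO_Zrf1KD cells had them 1.63-fold, 1.96-fold and 2.52-fold higher (limma adjusted p = 5.21e-07, 1.93e-07 and 2.45e-09). All 3 stayed slightly under WT cells, by differences of -0.31, -0.20 and -0.15. The call of Anxa8 there ended with the replicate block (limma adjusted p = 0.0521), and Anxa6 was -0.35 with quantile normalization and -0.34 in the deposited table. Anxa10, a stomach annexin, had the opposite course. It was called higher in Id1KO than in WT cells (1.58 log2, limma adjusted p = 0.000125) and lower in Id1KO_Zrf1KD than in Id1KO cells (-1.91 log2, limma adjusted p = 2.91e-05). Only 3 of 4 WT arrays and 1 of 4 Id1KO_Zrf1KD arrays were above background for it, and its size is not settled: the differences were 0.69 and -0.84 with normexp values and 0.40 and -0.48 in the deposited table. Anxa9 was lower in Id1KO_Zrf1KD than in Id1KO cells (-1.39 ± 0.28, limma adjusted p = 0.000956), with 2 of 4 arrays above background, and was -0.56 with normexp values and -0.22 in the deposited table. Anxa7 was called slightly lower (-0.28 ± 0.10, limma adjusted p = 0.0317), but the replicate block ended that call (limma adjusted p = 0.0692). Its probes disagree: the dimmer one gave 0.07 in this comparison and -0.47 in Id1KO against WT cells, where the brighter one gave 0.00. Anxa11, which binds ALG-2, differed by 0.20 ± 0.08 between Id1KO and WT cells (limma adjusted p = 0.0483), a call that ended with normexp values (0.15), with quantile normalization (0.13), in the deposited table (0.12) and with the replicate block (limma adjusted p = 0.101).

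S100g, the vitamin D dependent calbindin of gut and placenta, was the relative with the stepwise shape of S100a4. It was 3.73-fold higher in Id1KO than in WT cells (limma adjusted p = 1.16e-08) and 1.52-fold higher again in Id1KO_Zrf1KD cells (limma adjusted p = 0.000133). Its signal was low, and against the differences of 1.90 and 0.60 behind these folds, normexp values gave 0.85 and 0.24 and the deposited table gave 0.59 and 0.49, all called. A dimmer S100g probe, above background on 0 of 4 WT arrays, gave 2.58 and 0.34 for the same steps. S100b, a glial S100 gene, and S100a8, a myeloid one, were above background on all 4 Id1KO_Zrf1KD arrays and on 0 of 4 Id1KO arrays. Against the lowest signal that counts as above background, S100b was at least 3.72-fold and S100a8 at least 3.06-fold higher in Id1KO_Zrf1KD than in Id1KO cells (limma adjusted p = 0.000144 and 6.02e-06). These folds apply to the scaled signals only and are not strict bounds. In this comparison normexp values gave S100b 0.50 and S100a8 0.42 log2, and the deposited table gave 0.74 and 0.67. S100a3, a hair cuticle gene, was higher (0.61 ± 0.20, limma adjusted p = 0.0195), and with normexp values this call was lost (0.04), while quantile normalization gave 1.05 and the deposited table gave 0.34. S100z was not called in the 3 comparisons, and with normexp values it was called lower in this one (-0.29).

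**Figure D5:**
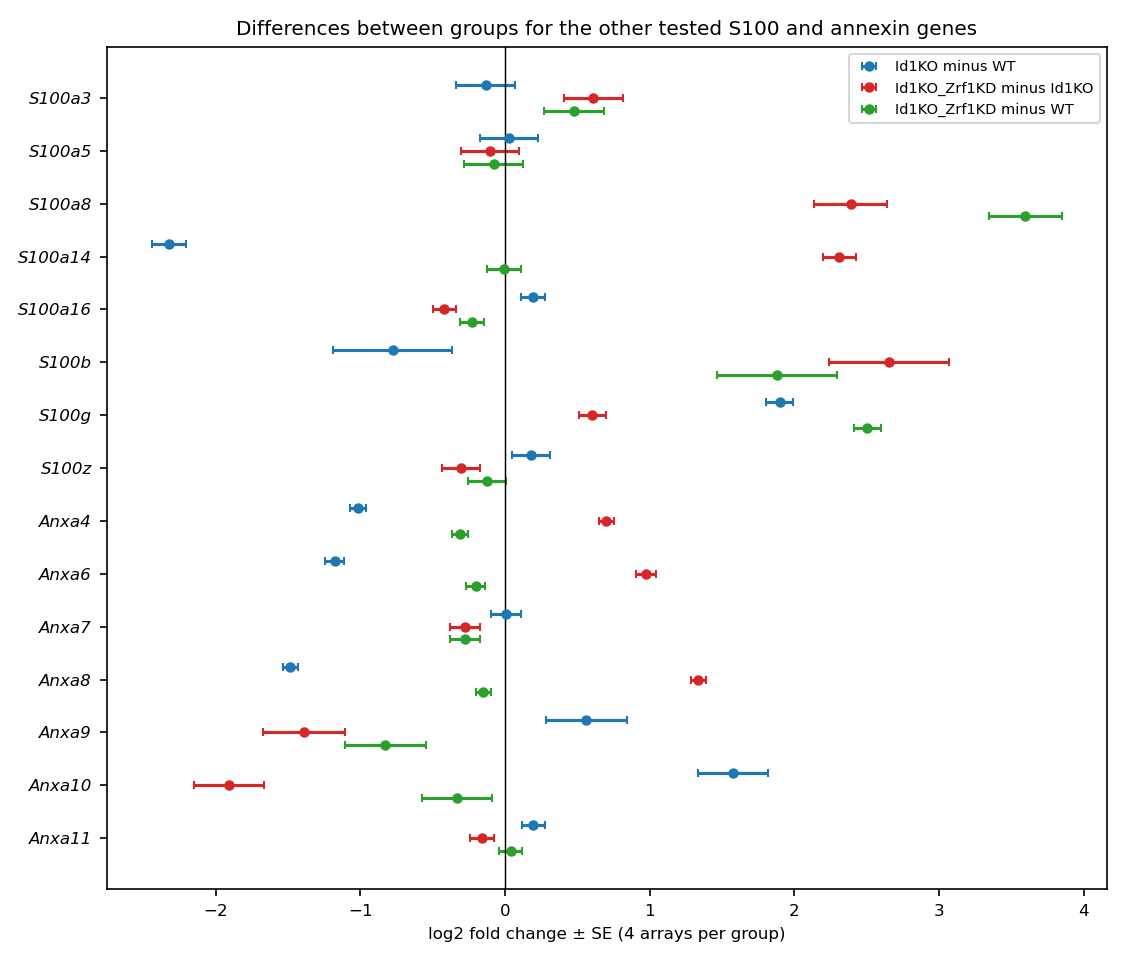
Log2 fold changes ± SE of the 15 other tested S100 and annexin genes for the 3 comparisons. S100a14, Anxa4, Anxa6 and Anxa8 lie below 0 in Id1KO against WT cells and above 0 in Id1KO_Zrf1KD against Id1KO cells, and Anxa10 lies the other way round. No point is drawn for S100a8 in Id1KO against WT cells, where neither group was above background, and the sizes for dim genes such as S100b are not settled.

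Genes known to work with these proteins were counted from 5 lists with 54 tested genes. Of these, in Id1KO_Zrf1KD against Id1KO cells, 37 were called higher and 4 lower, in Id1KO against WT cells 14 higher and 31 lower, and in Id1KO_Zrf1KD against WT cells 25 higher and 14 lower. Their median log2 differences were 0.58, -0.53 and 0.11, beside the medians of all genes given above. The lists were written with earlier results of these arrays known, so their direction is no independent evidence.

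The membrane repair list had 11 of 12 genes called higher and 1 lower in Id1KO_Zrf1KD against Id1KO cells, and 2 higher and 9 lower in Id1KO against WT cells. Ehd2, which shapes the necks of caveolae, was 5.32-fold higher in Id1KO_Zrf1KD than in Id1KO cells (2.41 log2, limma adjusted p = 6.12e-10), and by 1.27 log2 with normexp values and 1.55 in the deposited table. Ptrf, the caveolar coat protein cavin-1, was 4.93-fold higher (limma adjusted p = 9.72e-11), and had been 2.29-fold lower in Id1KO than in WT cells (limma adjusted p = 7.78e-09). Myof, a ferlin of membrane fusion, was above background on all WT and Id1KO_Zrf1KD arrays and on 0 of 4 Id1KO arrays. It was at least 3.24-fold lower in Id1KO than in WT cells (limma adjusted p = 0.000125), where normexp values gave -0.52 log2 and the deposited table -0.70. Dysf, the ferlin that works with annexins at torn membrane, was 2.21-fold lower in Id1KO than in WT cells (limma adjusted p = 1.48e-09).

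In the plasminogen list, 5 of 6 genes were called higher and 1 lower in Id1KO_Zrf1KD against Id1KO cells. In Id1KO against WT cells 2 were called higher and 4 lower, and in Id1KO_Zrf1KD against WT cells 5 higher and 0 lower. Plaur, the urokinase receptor, was 1.52-fold lower in Id1KO than in WT cells (limma adjusted p = 2.96e-05) and 5.63-fold higher in Id1KO_Zrf1KD than in Id1KO cells (limma adjusted p = 5.64e-10). Plat, the tissue activator, was 2.36-fold lower and then 2.98-fold higher in the same comparisons (limma adjusted p = 1.19e-07 and 2.05e-08). Plau, the activator urokinase, was at least 3.24-fold higher (limma adjusted p = 3.04e-06), with 0 of 4 Id1KO arrays above background. Normexp values gave Plau 0.45 log2 and the deposited table gave 0.69. Serpinb2, an inhibitor of plasminogen activators, was called higher (2.58 log2, limma adjusted p = 5.37e-06), with 2 of 4 Id1KO arrays above background, and by 1.16 log2 with normexp values and 1.41 in the deposited table. In this comparison S100a10 was lower and Anxa2 higher.

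Among 14 tested binding partners, 8 were called higher and 2 lower in Id1KO_Zrf1KD against Id1KO cells. Ahnak, the giant scaffold that S100A10 and annexin A2 tether at the membrane, was 3.86-fold higher (limma adjusted p = 2.34e-10) after being 2.74-fold lower in Id1KO than in WT cells (limma adjusted p = 1.36e-09). Its course was that of Anxa2 and not that of S100a10. Pla2g4a, the cytosolic phospholipase that annexin A1 and S100A10 hold back, was 2.88-fold higher in Id1KO_Zrf1KD than in Id1KO cells (limma adjusted p = 1.05e-08). Fgf1, the growth factor whose release S100A13 assists, was 5.02-fold higher in Id1KO than in WT cells (limma adjusted p = 1.4e-08), where S100a13 itself was 1.97-fold lower. Ryr2, a calcium release channel that S100A1 binds, was lower in Id1KO than in WT cells (-1.38 ± 0.29, limma adjusted p = 0.00133), with 1 of 4 Id1KO arrays above background. With normexp values the difference was -0.18 and not called (limma adjusted p = 0.104), and in the deposited table it was -0.40 and called.

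Of the receptors of secreted S100 proteins and annexin A1, 3 were tested. Fpr1, a formyl peptide receptor for annexin A1, was at least 2.63-fold higher in Id1KO_Zrf1KD than in Id1KO cells (limma adjusted p = 0.000318), where normexp values gave 0.25 log2 and the deposited table gave 0.52. Bsg, or basigin, a receptor of several S100 proteins, was 1.36-fold higher (limma adjusted p = 0.000173). Ager, the receptor RAGE, was higher in Id1KO than in WT cells (0.98 ± 0.38, limma adjusted p = 0.0361), with 1 of 4 WT arrays above background. That call ended with quantile normalization (0.64, limma adjusted p = 0.0925), in the deposited table (0.12, limma adjusted p = 0.128) and with the replicate block (limma adjusted p = 0.0803). Of 19 other EF-hand calcium binders, 11 were called higher and 8 not called in Id1KO_Zrf1KD against Id1KO cells, and 5 were called higher and 11 lower in Id1KO against WT cells. Calu, the secretory pathway protein calumenin, was the one with the largest difference in the first of these (2.30-fold, limma adjusted p = 1.04e-06).

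Markers of other cell types also differed between the groups. All 23 fibroblast markers were called higher in Id1KO_Zrf1KD against Id1KO cells, and their summed linear signal, in units of the array's 75th percentile, ranged from 47.7 to 51.1 over the WT arrays, from 35.4 to 40.4 over the Id1KO arrays and from 140 to 153 over the Id1KO_Zrf1KD arrays. In Id1KO against WT cells 5 fibroblast markers were called higher and 14 lower. Of these markers, Col5a2 and Lum were not above background on any WT or Id1KO array. All 14 parietal endoderm markers were called higher in Id1KO_Zrf1KD against Id1KO cells, with sums of 252 to 265, 144 to 149 and 447 to 461 in the 3 groups. All 10 tested trophoblast and simple epithelium markers were called higher there as well. Their sums were 49.98 to 54.2 on WT, 32.7 to 34.4 on Id1KO and 63.6 to 65.3 on Id1KO_Zrf1KD arrays, and Cdx2 was above background only on Id1KO_Zrf1KD arrays.

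The sums of the macrophage list ran from 7.24 to 8.40 on WT, from 13.3 to 15.6 on Id1KO and from 7.43 to 8.21 on Id1KO_Zrf1KD arrays. Of its genes, Sfpi1 was not above background on any array. Itgam alone gave 79.5%, 80.3% and 56.9% of these sums, and without it they ran from 1.38 to 1.82, from 2.58 to 3.66 and from 3.02 to 3.81. By count, 6 of 8 tested macrophage markers were called higher and 2 lower in Id1KO_Zrf1KD against WT cells (median 1.77 log2), as were 6 and 2 against Id1KO cells, and 7 were higher and 1 lower in Id1KO against WT cells. Against WT cells, Id1KO_Zrf1KD cells differed most in Lyz2, Emr1 and Tyrobp (2.92, 2.56 and 2.47 log2). Emr1 was above background on 0 of 4 WT arrays. The sums of the embryonic stem cell markers were 1185 to 1345, 1212 to 1339 and 983 to 999 in the 3 groups, and without Dppa5a, which added most, 712 to 783, 516 to 534 and 515 to 534. In Id1KO against WT cells 4 of these 12 markers were called higher and 6 lower, Nanog, Zfp42 and Klf4 among the latter (2.02-fold, 2.03-fold and 2.62-fold). Sums without 1 gene were added after seeing the data. The fibroblast, parietal endoderm and trophoblast sums are lowest in Id1KO and highest in Id1KO_Zrf1KD arrays. Without Krt18, the trophoblast sums of Id1KO_Zrf1KD arrays (33.8 to 35.0) lie within those of WT arrays (33.5 to 36.3). The order of the sums is that of S100a11 and Anxa5, and not that of S100a4, S100a6, Anxa1, Anxa3 or S100a10. The means of Anxa2 had this order too, but its WT and Id1KO_Zrf1KD arrays overlapped. By mean, S100a13 and S100a1 were lowest in Id1KO and highest in WT cells. Single markers did not all follow their sums. Mean levels in WT, Id1KO and Id1KO_Zrf1KD cells were -3.46, -2.55 and -0.47 for Twist2, and -2.95, -0.61 and 0.995 for Dab2. Both rose in steps, as S100a4 did. In Id1KO against WT cells, 4 parietal endoderm markers were called higher and 8 lower, and 0 trophoblast markers higher and 9 lower. The part of other cell types in the members' differences was not tested. In such bulk RNA, fewer cells of a type and less RNA per cell cannot be told apart.

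The members were also set against each other over the 12 arrays, as the root mean square difference between profiles centred on their own mean. The closest pair was S100a13 and Anxa2 (0.14 log2 units), which are on different chromosomes, followed by S100a6 and Anxa1 (0.19) and by Anxa1 and Anxa3 (0.22). The neighbours S100a1 and S100a13 stood at 0.26. The partners S100a10 and Anxa2 stood at 0.62 and the partners S100a11 and Anxa1 at 0.56. The farthest pair was S100a4 and S100a13 (1.64). The genes of these 2 partner pairs were thus farther apart here than several other pairs of members. This distance also grows with how far a gene's groups span, from 0.55 log2 units for S100a10 to 3.04 for S100a4. Other ties between the members' proteins were not considered.

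Among 3245 other genes with symbols, a group span of at least 1 log2 unit and all 12 arrays above background, the profile nearest to Anxa1 was that of Bag5 (root mean square difference 0.058) and the nearest to S100a11 that of Arf6 (0.067). Pld3 and Grn, genes of lysosomal proteins, were nearest to S100a13 (0.071 and 0.076), and Gaa, a lysosomal glucosidase, to Anxa2 (0.088). Manba, a lysosomal mannosidase, and Cdh2, or N-cadherin, were nearest to Anxa5 (0.097 and 0.11). Tymp was nearest to S100a6 (0.072) and Ccnd2, a D cyclin, to Anxa3 (0.12). For S100a4 the nearest was Gng11 (0.17), for S100a1 Oplah (0.19) and for S100a10 Ska1 (0.20). These are likenesses of 3 group means and their array scatter, and many genes share such a shape. S100a1, S100a10, Anxa2 and S100a13 span only 0.69, 0.55, 0.85 and 0.98 log2 units themselves. Other genes with spans as small were not candidates, so the genes named for these members are the nearest within that limit only.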

How the data were processed

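Total RNA of 12 cultures was labelled with Cy3 and hybridised to 1-colour Agilent mouse arrays; per the file headers, Agilent Feature Extraction 10.7.3.1 made the deposited intensity values, with probe positions on mm9. The authors' deposited log2 table, made by steps that the sources used here do not give, served as an alternative. Its columns matched their own arrays in 12 of 12 cases, and each has a median of 6.55.

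From the scanner files, log2 of the processed signal minus the array's 75th percentile over non-control spots was taken, outlier-flagged spots were left out, spots were averaged per probe, and the brightest probe stood for a gene. Genes well above background on all 4 arrays of at least 1 group were tested with limma 3.58.1 (R 4.3.3, with data.table at version 1.17.8, two-sided, Benjamini-Hochberg over 22590 genes), all groups in 1 fit. A probe counted as well above background on an array when at least 50% of its spots did. A fold called at least N sets the brighter group's mean against, per array, the higher of the dim probe's signal and the lowest signal among probes well above background. Some probes with a signal higher than that lowest one were not well above background. Such a fold is therefore not a strict bound. The fit was tested on simulated data for Id1KO_Zrf1KD against Id1KO cells with 22590 genes, where it recovered 58 of 100 changes of 0.5 log2 and 81 of 100 of 1 log2, so a gene not called may still have changed. Promoters (GRCm38.p6, RefSeq) were searched with Python 3.11.15; 8 of 10 members matched, and S100a10 and Anxa3 did not.

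Named genes were every member and every tested relative, and of each further list up to 3 genes with the largest absolute difference per comparison among those called; the 2 most alike genes per member followed the stated distance rule. The lists' counts include 1 gene that this rule names and that is not reported here. Members, lists and tests were chosen with earlier results of these data known. Alternatives were normexp (offset 50), quantile normalization, the deposited table, 2 other filters, the mean of probes, slide and replicate blocks, 2-group fits and leaving out each array. Replicate numbers were not taken as pairs: the median correlation of deviations was -0.20 between arrays of the same number and 0.24 within a slide, and 1 of 12 arrays was closest to its own number. The number of arrays limits the precision.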

Additional observations from a re-analysis of the deposited data

How the results depend on the processing

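Over 21 alternatives, 619 of the members' values kept their direction and their side of the threshold, 4 gained a call, 5 lost one and 2 reversed. The reversals were those of Anxa2 in Id1KO_Zrf1KD against WT cells, which was -0.11 with quantile normalization and -0.10 in the deposited table. The members called lower in that comparison were 1 in place of 2 with no filter on dim probes, and 1 to 2 when each array was left out, because S100a13 lost its call. The relatives called higher in Id1KO against WT cells were 2 in place of 4 with the deposited table. With only genes above background on all arrays, 9 relatives were tested, of which 5 (in place of 8) were higher and 2 (in place of 4) lower in Id1KO_Zrf1KD against Id1KO cells, and 1 (in place of 3) was higher against WT cells; fewer genes were tested. The relatives lower in Id1KO_Zrf1KD against WT cells were 3 in place of 6 with no filter, and 3 to 6 when each array was left out, with 3 without WT replicate 3. The partner genes called lower in Id1KO_Zrf1KD against Id1KO cells were 2 in place of 4 with quantile normalization and with the deposited table, and 7 with slide as a block. Except where stated, the cause was not tested. With the replicate number as a block, the members' counts were the same (8 higher and 1 lower in Id1KO_Zrf1KD against Id1KO cells), and the calls among the 22590 genes came to 7086 up and 8702 down, in place of 7294 and 8988. Signals near background, as for S100b, S100a8 and Myof, leave the size of those genes' differences unsettled. In the comparisons given for them above, normexp values and the deposited table gave smaller differences.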
